A study of Mus musculus with 19 samples.

Results

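The apolipoproteins are the protein coat of the lipoproteins, the particles that carry lipids in blood, and 10 genes of that family and its assembly machinery were followed here. They are *Apoa1*, *Apoa2*, *Apoa4*, *Apoa5*, *Apob*, *Apoc1*, *Apoc2*, *Apoc3*, *Apoe* and *Mttp*. All probes that the platform annotation assigns to these 10 symbols were taken, which gave 13 of the 46632 distinct probes on the array, for 10 of the 17709 genes that have a symbol. *Apoa2*, *Apoa4* and *Apoc1* had 2 probes each and the others 1. Where a gene had 2, its lead probe is the brighter one over all 19 arrays.

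RNA was taken from the liver and the duodenum of male C57BL/6 mice in 2 experiments, and each array was hybridised with the RNA of 1 mouse. In the first, mice homozygous for a disrupted *Hfe* gene (*Hfe*-/-, 3 liver and 2 duodenum arrays) were set against wild-type mice (2 and 2 arrays), all on a standard chow with 250 ppm of iron. In the second, wild-type mice were given a diet with 2% carbonyl iron for 6 weeks (iron-supplemented, 3 and 3 arrays) or a standard diet with 200 ppm of iron (control diet, 2 and 2 arrays). By their labels the *Hfe*-/- mice were 10 to 12 weeks old (liver) and 10 to 11 (duodenum), the wild-type mice 13 to 14 (liver) and 12 to 13 (duodenum), and the mice of the diet experiment 16 to 18. Label age and genotype therefore cannot be told apart, although the study's methods give 1 common age for both genotypes. The *Hfe* disruption is present in every cell of the mouse, and the dietary model loads iron through the gut of animals with a working *Hfe* gene.

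Liver and intestine are the organs that build lipoproteins around apolipoprotein B. *Mttp*, the microsomal triglyceride transfer protein, loads lipid onto *Apob* in the endoplasmic reticulum, and the particle leaves the liver as very low density lipoprotein or the enterocyte as a chylomicron. *Apoa1* and *Apoa2* are the main proteins of high density lipoprotein. The exchangeable proteins *Apoc1*, *Apoc2*, *Apoc3*, *Apoa5* and *Apoe* set how fast triglyceride is removed and remnants are taken up: *Apoc2* is the cofactor of lipoprotein lipase, *Apoc3* opposes the clearance of triglyceride-rich particles, *Apoa5* promotes it, and *Apoe* is a ligand of the low density lipoprotein receptor. *Apoa4* is made by enterocytes during fat absorption and, in the mouse, by the liver as well.

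*Apoa1*, *Apoc3*, *Apoa4* and *Apoa5* lie side by side in that order on chromosome 9, within 43292 bases of the GRCm38.p6 assembly (46228630 to 46271921). *Apoc2*, *Apoc1* and *Apoe* are neighbours on chromosome 7, and *Apoa2*, *Mttp* and *Apob* lie on chromosomes 1, 3 and 12. In the liver results below *Apoa4* and *Apoa5* were the members that rose, while the *Apoa1* probe was too close to the top of the scale to show a rise of that size. The 250 bases before the RefSeq start are printed for the 2 genes that rose and for *Apoa1* at the other end of the cluster, all on the plus strand. The windows are chr9:46240594-46240843 for *Apoa4*, chr9:46268358-46268607 for the first of 2 annotated starts of *Apoa5*, and chr9:46228380-46228629 for *Apoa1*.
Apoa4: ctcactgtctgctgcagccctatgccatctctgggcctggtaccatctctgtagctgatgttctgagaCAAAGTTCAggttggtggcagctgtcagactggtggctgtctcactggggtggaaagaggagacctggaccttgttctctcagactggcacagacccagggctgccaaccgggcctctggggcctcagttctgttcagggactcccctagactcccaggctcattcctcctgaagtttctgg
Apoa5: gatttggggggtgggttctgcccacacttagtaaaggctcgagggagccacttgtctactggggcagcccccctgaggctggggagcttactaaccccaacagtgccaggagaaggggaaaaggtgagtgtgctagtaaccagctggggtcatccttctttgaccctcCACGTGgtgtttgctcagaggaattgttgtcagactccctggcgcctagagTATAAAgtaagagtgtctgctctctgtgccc
Apoa1: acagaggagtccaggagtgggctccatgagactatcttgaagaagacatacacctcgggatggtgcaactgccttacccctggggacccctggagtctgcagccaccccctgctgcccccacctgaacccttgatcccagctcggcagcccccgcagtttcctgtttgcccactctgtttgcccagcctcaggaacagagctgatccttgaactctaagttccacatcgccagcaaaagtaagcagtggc
Capitals mark matches on either strand to 4 letter patterns that were chosen after the windows had been read: CAAAGTNCA, the type of site that HNF4 proteins bind, the E-box CACGTG, the TATA box as TATAAA, and the nuclear receptor half-site AGGTCA. *Apoa4* held CAAAGTTCA, which starts 182 bases before its start. That pattern occurred in 1.19% of all 32851 promoter windows of 250 bases. *Apoa5* held CACGTG at 82 and TATAAA at 31 bases before its start, against 6.02% and 12.4% of all windows. AGGTCA, present in 14% of all windows, was in none of the 3, and *Apoa1* held none of the 4 patterns. A match is a description of letters and says nothing of a bound factor. Windows were found for 8 of the 10 genes. Among the members not printed, TATAAA also occurred in *Apoa2*, *Apob* and *Apoe*, and AGGTCA in *Apoa2* and *Apoc2*. None of these genes was called in liver.

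Between 12846 and 14369 probes were detected on the liver arrays and between 13936 and 16965 on the duodenum arrays, detection meaning a detection p under 0.05 against the negative control beads. The *Hfe* probe cannot serve as a check of genotype, because it was close to background everywhere: its log2 signal was 6.50 to 6.73 in *Hfe*-/- and 6.60 to 6.77 in wild-type livers, and it was undetected on all 4 duodenum arrays of that experiment. Of 5 hepatocyte markers, *Cps1* and *Ttr* were bright in liver, *Fgb* and *Tat* were undetected on every array and the *Alb* probe was close to background in liver (log2 6.47 to 6.89), which leaves 2 usable markers. The duodenum arrays carried strong pancreatic acinar RNA (7 markers, log2 of the summed signal 17.05 to 17.48) except wild-type replicate 2, at 10.77. The 4 duodenum arrays of the *Hfe* experiment also carried stomach and Brunner gland RNA, with a summed log2 signal of 14.84 to 16.67 against 12.28 to 12.87 in the diet experiment, where *Gkn1*, *Gkn2* and *Muc6* were undetected. In tissue RNA of this kind, fewer cells of a type and less RNA per cell cannot be told apart.

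Every member was detected on all 10 liver arrays, but 7 of the 13 probes lay at the top of the scale. The lead *Apoa2* probe was the brightest or second brightest of the 46632 probes on every liver array, at 34823 to 40509 units of bead signal. The *Apoa1* probe ranked 5 to 14, the lead *Apoc1* probe 5 to 10, the *Apoc3* probe 12 to 33 and the *Apoe* probe 29 to 52. Quantile normalization gives the same value to the same rank on every array, so that the scale ends at the brightest probe (log2 15.25). The largest rise over the control-diet mean that could be read was 0.04 for the lead *Apoa2* probe, 0.54 for the lead *Apoc1* probe, 0.60 for *Apoa1*, 1.18 for *Apoc3* and 1.44 for *Apoe*, against 6.41 for the lead *Apoa4* probe and 6.04 for *Apoa5*. For *Apoa1*, *Apoa2*, *Apoc1*, *Apoc3* and *Apoe* a small difference in liver therefore does not show that the transcript was stable.

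**Figure D1:**
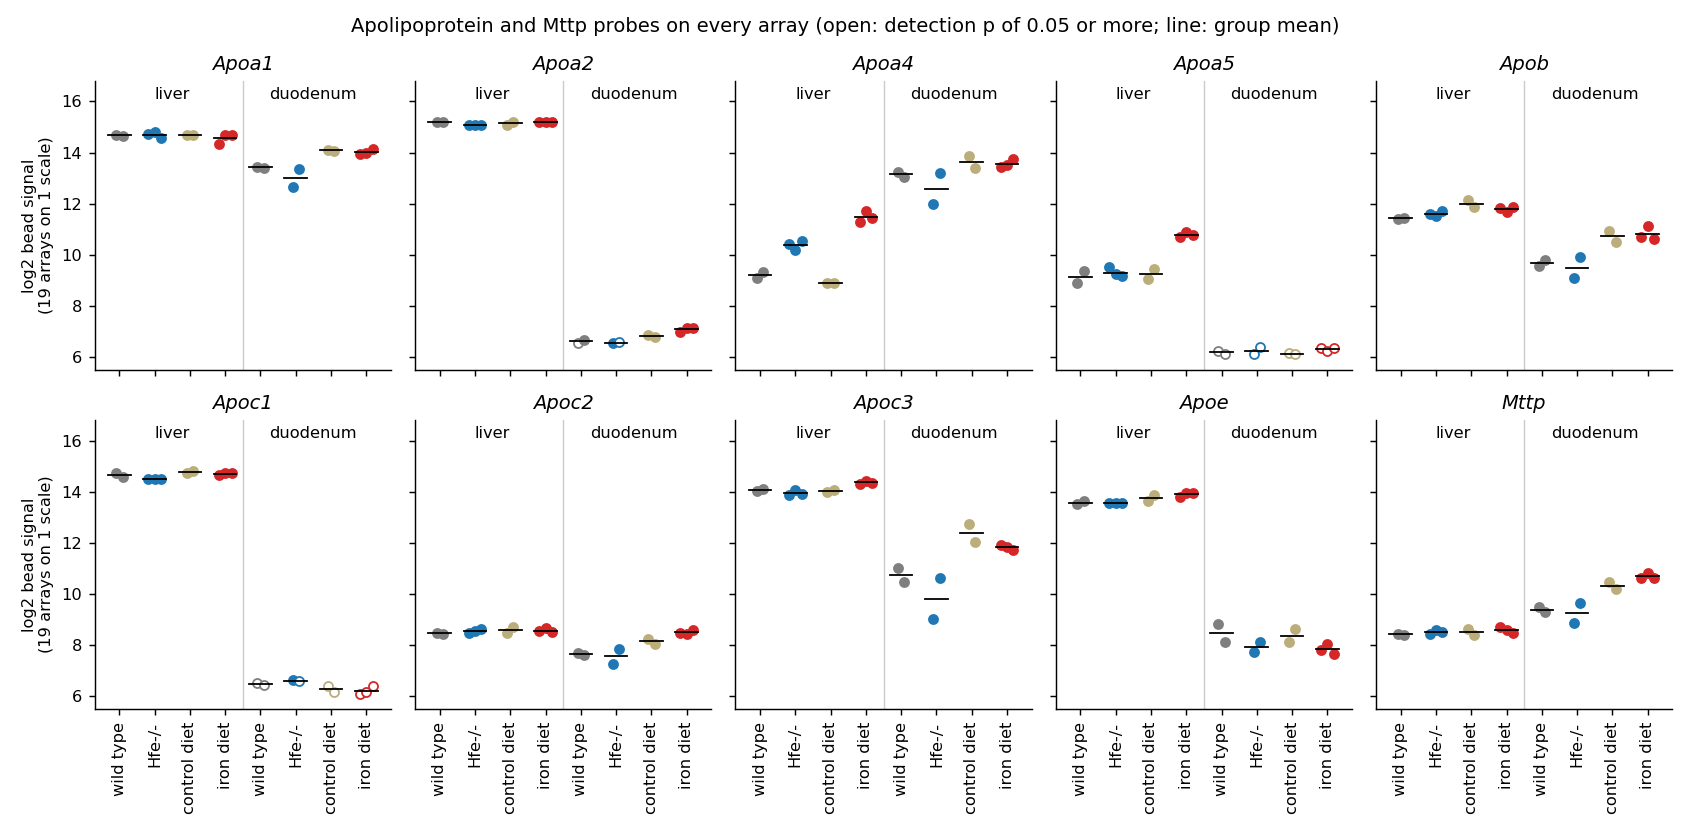
Log2 bead signal (vertical axis, 19 arrays quantile-normalized together) of the lead probe of each of the 10 genes in the 8 groups (horizontal axis). Points are single arrays, open where the detection p was 0.05 or more, and lines are group means. *Apoa4* in liver rose from the control groups through *Hfe*-/- to the iron-supplemented mice, while *Apoa1*, *Apoa2* and *Apoc1* in liver stayed within a narrow band at the top of the scale, where there was little room for a rise.

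The first question was whether lack of *Hfe* changed these genes in liver. *Apoa4* was the only member that rose. The lead probe (ILMN_1250349) read 1456, 1075 and 1376 units in the 3 *Hfe*-/- livers and 524 and 647 in the 2 wild-type livers. The groups did not overlap, and the dimmest *Hfe*-/- liver was well above the brighter wild-type liver. Lack of overlap was not particular to *Apoa4*. After normalization it also held for the lead *Apoa2* probe, *Apob*, both *Apoc1* probes, *Apoc2* and *Mttp*, none of them called. Before normalization, of these, only the *Apoc1* probe ILMN_1228469 had no overlap. The lead *Apoa2* probe held rank 2 on every *Hfe*-/- liver array and rank 1 on both wild-type arrays. Its mean bead signal was nevertheless higher in *Hfe*-/- livers (39750 against 38137 units). Lack of overlap was not counted over all probes, so here and below it is a description only. After normalization the lead *Apoa4* probe rose 2.37-fold (log2 1.24, SE 0.13, adjusted p = 0.0471). The other probe (ILMN_2754104) read 368, 279 and 376 against 159 and 169. It had a rise of 2.14-fold that did not pass (log2 1.09, SE 0.13, adjusted p = 0.084). With 1 of 13 member probes called, against 0.0282% of the 14160 probes tested (4 probes), the *Apoa4* call was also the last of those 4 in order of p and lay close to the threshold. Its size was nearly the same under every alternative (log2 1.08 to 1.37), but its adjusted p was between 0.00445 and 0.151 and passed in 4 of 16 alternatives, the other probe included. Leaving out *Hfe*-/- replicate 1 or 3 or either wild-type liver took the call away (adjusted p = 0.0852 to 0.151), and leaving out *Hfe*-/- replicate 2 kept it (adjusted p = 0.0174).

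The other 9 genes did not pass in *Hfe*-/- liver. Over all 14160 probes tested 1266 had an unadjusted p below 0.05. Among these 9 genes only the second *Apoc1* probe (ILMN_1228469) did (log2 -0.29, 95% interval -0.50 to -0.09, adjusted p = 0.404). Its readings were 18503, 17608 and 17037 in *Hfe*-/- and 19781 and 20204 in wild-type livers, with no overlap, while the lead *Apoc1* probe differed by only -0.09 (95% interval -0.27 to 0.09). The neighbours of *Apoa4* in the cluster stayed close to 0. *Apoc3* differed by -0.13 (95% interval -0.34 to 0.09), *Apoa1* by 0.03 (-0.16 to 0.22) and *Apoa5* by 0.17 (-0.21 to 0.55). The scale ends 1.12 above the wild-type mean of *Apoc3* and 0.61 above that of *Apoa1*. A rise of the size seen for the lead *Apoa4* probe could not have been read from either. *Apoa5* readings were 757, 541 and 508 against 460.4 and 663, so that the groups overlapped. *Apob* differed by 0.18 (-0.02 to 0.38) and its lipid-loading partner *Mttp* by 0.11 (-0.09 to 0.30). The intervals for *Apoa2* (-0.26 to 0.09), *Apoc2* (-0.09 to 0.29) and *Apoe* (-0.19 to 0.17) all reached across 0. The median log2 difference was 0.06 over the 13 probes and -0.01 over all probes tested.

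**Figure D2:**
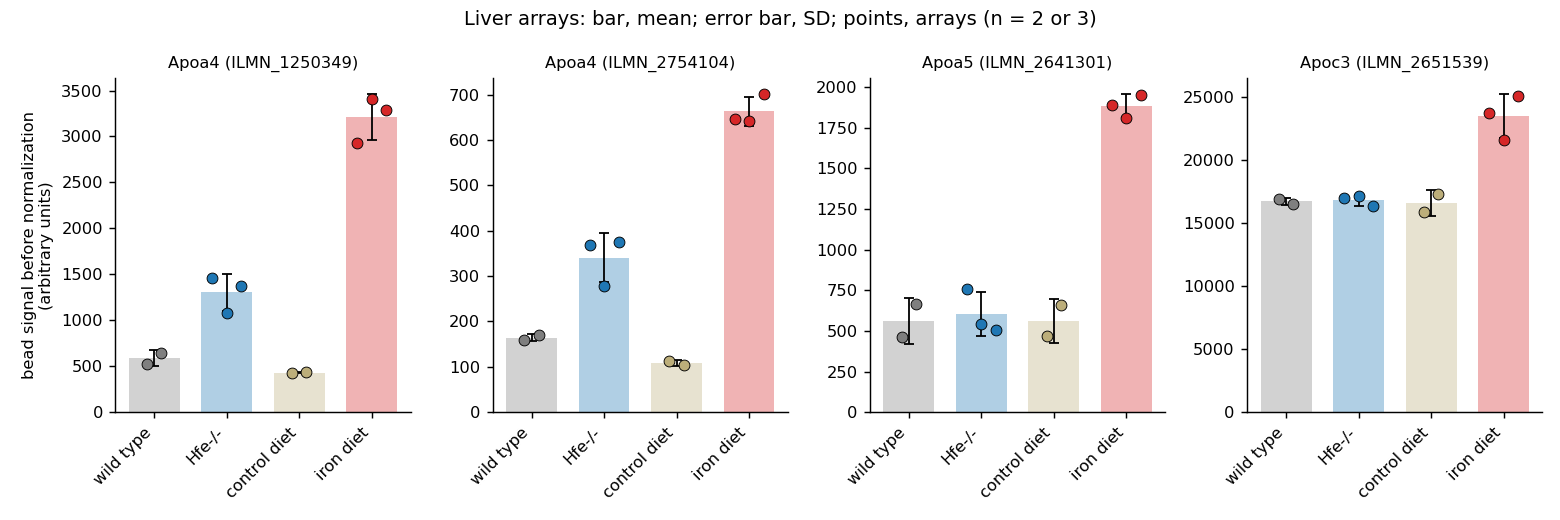
Bead signal before normalization (vertical axis, arbitrary units, from 0) of both *Apoa4* probes, *Apoa5* and *Apoc3* on the 10 liver arrays, by group (horizontal axis); bars are means, error bars SD and points single arrays. *Apoa4* was raised in *Hfe*-/- and more so in iron-supplemented livers, whereas *Apoa5* and *Apoc3* stood apart from their controls in the iron-supplemented livers alone.

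The second question was what dietary iron did to the same genes in liver. *Apoa4* and *Apoa5* rose, and no member fell. The lead *Apoa4* probe read 2929, 3408 and 3290.1 units in the 3 iron-supplemented livers and 424 and 437 in the 2 control-diet livers. Every iron-supplemented liver was far above both controls, and the rise was 6.54-fold (log2 2.71, SE 0.13, adjusted p = 0.000218). The other *Apoa4* probe read 647, 643 and 701 against 114 and 104. The 2 control-diet readings were detected but not far above the median signal of their arrays (72 and 69 units), so its fold is less certain. This probe rose 5.14-fold (log2 2.36, SE 0.09, adjusted p = 0.000169), and the 2 probes followed each other closely (Pearson r = 0.995 over the 10 liver arrays). *Apoa5*, which promotes the removal of plasma triglyceride, read 1891, 1813 and 1954 units against 468 and 659. It rose 3.05-fold (log2 1.61, SE 0.13, adjusted p = 0.00299), again with no overlap, although its 2 controls were less alike than those of *Apoa4*. In all, 3 of 13 probes, from 2 genes, were called, all upwards, against 2.17% of the 14919 probes tested.

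*Apoc3*, which lies between *Apoa1* and *Apoa4*, stood at the edge of the threshold. It read 23787, 21622 and 25084 units in iron-supplemented livers and 15891 and 17330 in control-diet livers. The groups did not overlap before or after normalization, but the normalized difference of 0.36 (95% interval 0.18 to 0.53) did not pass (adjusted p = 0.0599). In 14 alternatives its difference was between 0.30 and 0.40 and its adjusted p between 0.0435 and 0.401, with 5 of them past the threshold. *Apoa1*, at the other end of the cluster, differed by -0.08 (-0.29 to 0.14), with overlapping groups. A rise of the size seen for *Apoa4* or *Apoa5* could not have been read from this probe, since the scale ends 0.60 above its control-diet mean.

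The remaining members gave small differences in the iron-supplemented livers. *Apob*, the structural protein of the secreted particle, read 4367, 3263 and 4555 against 4257 and 3866, with overlap (log2 -0.19, 95% interval -0.43 to 0.05). *Mttp* differed by 0.10 (-0.14 to 0.34) and *Apoe* by 0.14 (-0.09 to 0.37). *Apoc2*, the lipase cofactor, differed by -0.01 (-0.24 to 0.21), and both probes of *Apoc1* and of *Apoa2* differed by at most 0.05 in either direction. The median over the 13 probes was 0.04, beside -0.01 over all probes tested, and the rise passed the test in 2 of the 10 genes, of which 5 had the limited room given above.

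Iron-supplemented replicate 1 stood apart from the other livers in RNA of other cell types. Its smooth muscle markers *Actg2* and *Acta2* were at log2 8.09 and 10.08, against at most 6.73 and 8.31 on the other 9 liver arrays, and it was the only liver with acinar *Ctrb1* detected (7.92). It had the lowest reading of its group for the lead *Apoa4* probe. Without it *Apoa4* still rose (log2 2.81, adjusted p = 0.000131), as did *Apoa5* (log2 1.67, adjusted p = 0.00249). Without replicate 2 the *Apoa5* difference was 1.55 with an adjusted p of 0.0502, just outside the threshold. Since *Apoa4* is also an enterocyte gene, the 5 enterocyte markers were read in liver. *Fabp2* was undetected in duodenum as well and says nothing here. *Alpi* and *Mogat2*, which were detected on all 9 duodenum arrays, were undetected on all 10 liver arrays. *Vil1* lay at the detection limit, detected in 2 of 3 iron-supplemented livers (log2 6.54 to 6.62), in 1 of 2 control-diet livers (6.50 to 6.57) and in none of the 5 livers of the *Hfe* experiment (6.44 to 6.52), against 10.80 to 12.11 in duodenum. *Anpep* was detected in every liver, at 7.98 to 8.23 in the iron-supplemented and 8.16 to 8.38 in the control-diet group. It was the brightest of the 5 there, and the list's summed signal (9.28 to 9.48) also holds the background of undetected markers. The part of RNA from other cell types in the *Apoa4* and *Apoa5* differences was not tested.

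**Figure D3:**
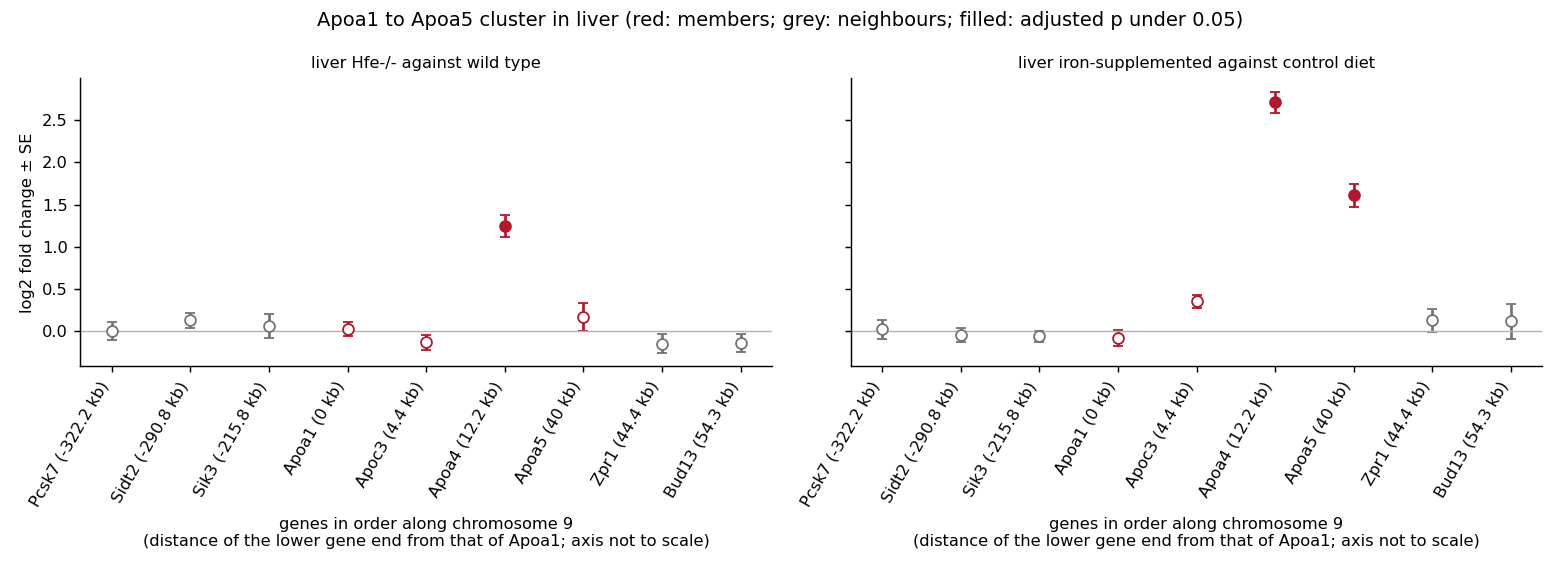
Log2 fold change with its standard error (vertical axis) in liver for the 4 cluster genes and 5 measured neighbours on chromosome 9, in order along the chromosome (horizontal axis, not to scale); filled points passed an adjusted p of 0.05. *Apoa4* stood alone in *Hfe*-/- liver, *Apoa4* and *Apoa5* rose with dietary iron, the room above *Apoa1* and *Apoc3* was limited, and the flanking genes *Pcsk7*, *Sidt2*, *Sik3*, *Zpr1* and *Bud13* lay between -0.15 and 0.13 in both comparisons.

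The *Hfe* and diet effects in liver were then set against each other in 1 fit over the 10 liver arrays. The *Hfe* effect was smaller for both *Apoa4* probes (difference -1.46, SE 0.20, and -1.27, SE 0.17, adjusted p = 0.00973 for each) and for *Apoa5* (-1.44, SE 0.24, adjusted p = 0.024). These 3 of 13 probes were called beside 0.896% of the 16288 probes tested. *Apoc3* differed by -0.49 without passing (adjusted p = 0.0848). All 3 calls were lost without control-diet replicate 1. The 2 control groups did not match exactly: the lead *Apoa4* probe was 0.32 lower in control-diet than in wild-type livers (95% interval 0.06 to 0.58 lower, adjusted p = 0.166) and *Apob* 0.56 higher (0.30 to 0.83, adjusted p = 0.0531). No member probe passed between the 2 control groups, where 3.38% of all probes did. At an unadjusted p below 0.05 limma had 3 of 13 member probes, beside 3019 of all 14266 tested.

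In the duodenum the members divided into 2 sets. *Apoa1* and *Apoa4* were among the brightest probes (7589 to 18315 and 4770.1 to 14475 units), and *Apob*, *Apoc3*, *Mttp*, *Apoe* and *Apoc2* were detected on all 9 arrays. *Apoa5* and the second *Apoc1* probe were undetected on every duodenum array, the lead *Apoc1* probe was detected on 1 of 9, and the 2 *Apoa2* probes were detected on 7 and 6 of 9 at 88 to 155 units, near background.

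Lack of *Hfe* left no member called in duodenum. Of 13 probes 9 were measured on at least 2 arrays, and limma called 0 of them, with 0 at an unadjusted p below 0.05. Over all 16599 probes tested 1140 had an unadjusted p below 0.05 and 0.00602% (1 probe) were called. Few genes of any kind could therefore be called here. All 9 estimates were below 0, with a median of -0.29 beside -0.02 over all probes. *Apoc3* read 720 and 1381 units in the 2 *Hfe*-/- mice and 1676 and 1563 in the 2 wild-type mice. Both *Hfe*-/- readings were lower before normalization, but the groups overlapped after it, and the difference of -0.87 had an interval from -2.11 to 0.36. *Apoe*, at 283 and 296 against 433 and 359, differed by -0.53 (-1.15 to 0.10). *Apoa4* read 4770.1 and 8801 against 8065 and 8241, a difference of -0.54 (-1.46 to 0.38). *Apoa1* differed by -0.38 (-0.96 to 0.19), *Apob* by -0.17 (-0.83 to 0.48) and *Mttp* by -0.13 (-0.75 to 0.50).

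These estimates leaned on 1 mouse. *Hfe*-/- replicate 1 had the lowest normalized value of all 9 duodenum arrays for *Apoa1*, *Apoa4*, *Apob*, *Apoc2*, *Apoc3* and *Mttp*. Before normalization it was lowest for the same genes except *Apob* (767 units, against 669 in wild-type replicate 1) and *Mttp* (650 against 640). Its enterocyte marker sum was log2 12.13, beside 12.11 to 12.26 in the wild-type duodena, but the single markers went apart: in the 2 *Hfe*-/- duodena *Vil1* was lower (10.80 to 11.30 against 11.43 to 11.63) and *Alpi* higher (10.82 to 10.97 against 9.69 to 9.85). Its stomach and Brunner gland sum was 16.49, while wild-type replicate 1 was at 14.84, with *Gkn2* undetected and *Gkn1* at log2 6.73, and wild-type replicate 2 was the array with little acinar signal. The part of these differences in the member values was not tested. Leaving out any 1 of the 4 arrays changed no call, and moved the *Apoc3* estimate between -1.64 and -0.11. Without *Hfe*-/- replicate 1 the *Apoa4* estimate was 0.04.

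**Figure D4:**
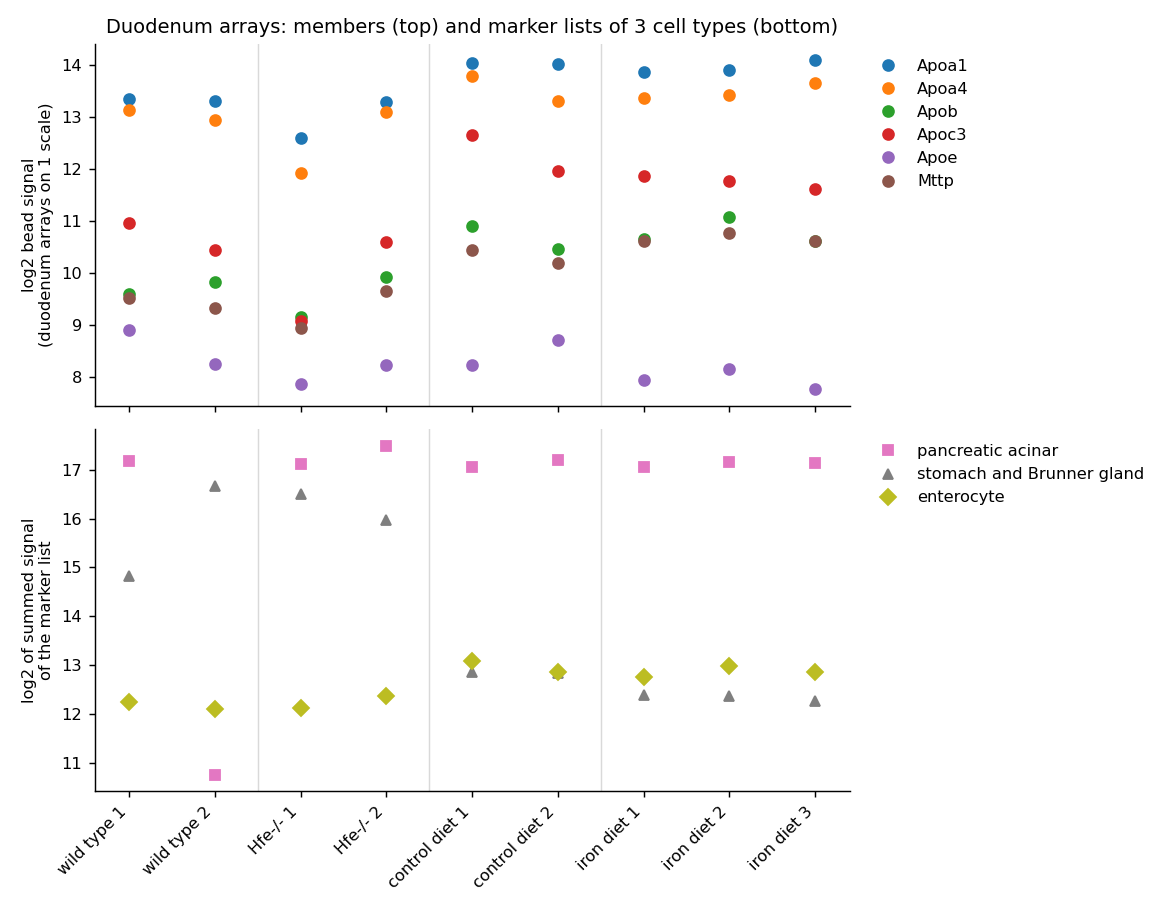
The 9 duodenum arrays in order of group (horizontal axis). The top panel gives the normalized log2 signal of 6 member lead probes. The bottom panel gives log2 of the summed signal of 3 marker lists. *Hfe*-/- replicate 1 is lowest for 5 of the 6 members shown, *Apoe* being the exception, wild-type replicate 2 alone has little acinar signal, and the members shown other than *Apoe* are higher in the diet experiment, as is the enterocyte marker sum.

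Dietary iron gave no call in duodenum either. Of 13 probes 10 were tested and limma called 0, beside 0.44% (72 probes) of the 16373 tested. At an unadjusted p below 0.05 were 5 of the 10, beside 1618 of the 16373. The 5 went in both directions. *Mttp* read 1762, 1986 and 1260.0 units in iron-supplemented and 1455 and 962 in control-diet duodena, a difference of 0.35 after normalization (95% interval 0.10 to 0.60, adjusted p = 0.343). *Apoc2* differed by 0.33 (0.11 to 0.56, adjusted p = 0.318) and *Apoa2* by 0.26 (0.06 to 0.47, adjusted p = 0.391). *Apoc3* went the other way, with 4519, 4109 and 2664 units against 6708 and 3265 (log2 -0.56, -1.02 to -0.09, adjusted p = 0.416). *Apoe*, at 257, 300.0 and 168 against 301 and 338, was also lower (-0.52, -0.92 to -0.12, adjusted p = 0.377). *Apoa4* read 11831, 11782 and 10481 against 14475 and 9115, with overlap and a difference of -0.07 (-0.45 to 0.30). *Apoa1* differed by -0.07 (-0.29 to 0.15) and *Apob* by 0.10 (-0.33 to 0.53). The median was 0.01 over the 10 probes and 0.01 over all probes.

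**Figure D5:**
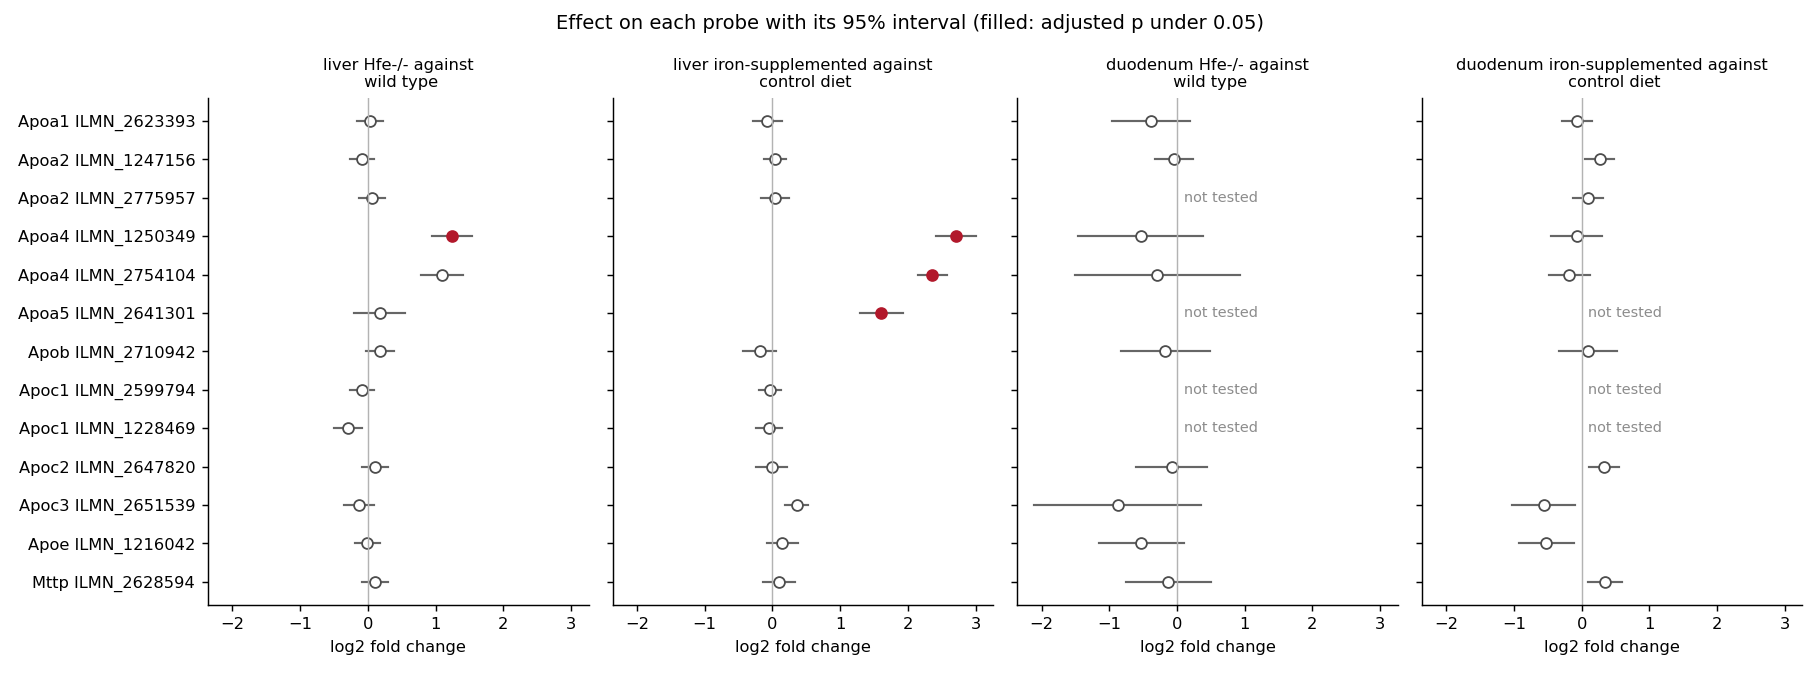
Log2 fold change (horizontal axis) of all 13 probes with its 95% interval in the 4 comparisons; filled points passed an adjusted p of 0.05 and probes measured on fewer than 2 arrays are marked as not tested. *Apoa4* in both liver comparisons and *Apoa5* with dietary iron are the filled points, and the intervals in *Hfe*-/- duodenum are the widest.

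The difference between the tissues was tested directly for each effect, with all 19 arrays on 1 scale. The diet effect was larger in liver for *Apoa4*, by 2.65 (SE 0.22, adjusted p = 0.000413) and 2.48 (SE 0.17, adjusted p = 0.000155) for its 2 probes. For *Apoa5* the difference was 1.35 (SE 0.16, adjusted p = 0.00481), but its duodenal signal was below detection, so that its value there is not an effect of diet on a measured transcript. These were 3 of 13 probes beside 1.09% of 18724. For the *Hfe* effect limma called 0 of 13 member probes, beside 0.0107% of 18677. At an unadjusted p below 0.05 were 3 of the 13, beside 1544 of the 18677. *Apoa4* had the largest estimate there (1.74 in favour of liver, 95% interval 0.81 to 2.68, adjusted p = 0.272). Within the duodenum 0 of 10 probes differed between the 2 models, beside 0.00541% of 18474. At an unadjusted p below 0.05 was 1 of the 10, beside 1692 of the 18474. Arrays of the 2 organs were treated as independent, since the labels do not link them by animal.

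In untreated mice (wild-type and control-diet together, 4 arrays a tissue) all 13 member probes differed between liver and duodenum, beside 53.9% of the 18348 probes tested. Higher in liver were 10 of them, beside 26.6% of all probes, and lower in liver were 3, beside 27.3%. The 3 belonged to *Apoa4* and *Mttp*. The lead *Apoa4* probe read 424 to 647 units in untreated liver and 8065 to 14475 in untreated duodenum and was 20.2-fold lower in liver (log2 -4.33, SE 0.11). *Mttp* read 297 to 345 against 640 to 1455 and was 2.63-fold lower (log2 -1.40, SE 0.09). Even the brightest iron-supplemented liver (3408 units) was below the dimmest duodenum (4770.1 units) for *Apoa4*, and the same held on the common normalized scale (11.73 against 11.99).

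The other 8 genes were higher in liver, over a wide range of ratios. *Apoa2*, of high density lipoprotein, had the highest measured ratio (349-fold, log2 8.45, SE 0.06), but that ratio is uncertain, since the probe was at the top of the liver scale and near background in duodenum (106 to 123 units), where 3 of 4 untreated arrays detected it and 2 of 4 the second probe. *Apoc1*, undetected in all 4 untreated duodena, was at least 275-fold and at least 207-fold higher by its 2 probes, and *Apoa5*, likewise undetected, at least 6.03-fold. These are lower bounds, in which each duodenum array was set to the higher of the probe's own value and the lowest signal detected on that array. *Apoe* was 37.7-fold higher in liver (log2 5.23, SE 0.17) and *Apoc3* 5.65-fold (log2 2.50, SE 0.17). *Apob* was 2.86-fold (log2 1.52, SE 0.12), *Apoa1* 1.91-fold (log2 0.94, SE 0.05) and *Apoc2* 1.53-fold higher (log2 0.61, SE 0.08). All 13 adjusted p-values were at most 0.000295. Since *Apoa2*, *Apoa1*, *Apoc1*, *Apoc3* and *Apoe* sat at the top of the liver scale, their ratios may be understated.

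The 2 untreated duodenum groups, set against each other after the values had been seen, differed in 4 members, where neither treatment gave a call. *Apoc3* was 3.05-fold higher in control-diet than in wild-type duodena (log2 1.61, SE 0.28, adjusted p = 0.0444), *Apob* 1.98-fold (log2 0.98, SE 0.18, adjusted p = 0.046), *Mttp* 1.86-fold (log2 0.89, SE 0.14, adjusted p = 0.0343) and *Apoa1* 1.63-fold (log2 0.70, SE 0.10, adjusted p = 0.0289). These 4 of 10 probes stood beside 5.01% of 16123. *Apoc2* (0.50, adjusted p = 0.075) and *Apoa4* (0.51, adjusted p = 0.198) had estimates in the same direction, and *Apoe* did not (-0.10). The summed log2 signal of the enterocyte markers was 12.87 to 13.09 in control-diet and 12.11 to 12.26 in wild-type duodena. Of the 4 measured 2 passed, both upwards, while *Alpi* overlapped (9.68 to 10.63 against 9.69 to 9.85). The stomach and Brunner gland sum was 12.84 to 12.87 against 14.84 to 16.67. In the same comparison 2 of 2 T cell markers rose (*Cd3e* at 8.38 to 8.51 against 6.89 to 7.07, *Cd3g* at 7.49 to 7.63 against 6.63 to 6.79), as did the 1 B cell marker measured (*Cd79a*, detected in both control-diet and neither wild-type duodenum). Of 2 hepatocyte-list markers measured 1 fell, with *Ttr* at 7.63 to 7.86 against 9.46 to 10.48. The part of any of these in the difference was not tested, and the experiment, the label age and the diet cannot be told apart. The 4 calls were lost under median scaling and without wild-type replicate 2 or either control-diet array.

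Genes around the family were read from 6 lists. Among the lipoprotein enzymes, transfer proteins and receptors, 16 genes were measured in the diet comparison in liver, and 0 rose and 2 fell, beside 2.17% of all probes called in either direction. One was *Angptl4*, the secreted inhibitor of lipoprotein lipase, which read 1369, 1022 and 1268 units in iron-supplemented and 2327 and 2082 in control-diet livers and fell by 1.05 (SE 0.10, adjusted p = 0.00506). In the *Hfe* experiment the same probe read 963, 1470 and 935 against 574 and 439. The groups did not overlap, and the difference of 1.21 (SE 0.23) did not pass (adjusted p = 0.21). The *Hfe* effect exceeded the diet effect on *Angptl4* by 2.26 (SE 0.29, adjusted p = 0.00821). Its control groups were themselves far apart, with control-diet livers 2.24 above wild-type livers on the log2 scale (adjusted p = 0.0102). The other was *Sdc1*, a proteoglycan that takes up remnant particles in hepatocytes, which fell by 0.39 (SE 0.07, adjusted p = 0.0434).

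Among 12 other apolipoproteins and lipoprotein proteins measured in that comparison, 0 rose and 1 fell: *Saa4*, the constitutive serum amyloid A of high density lipoprotein, fell by 0.94 (SE 0.11, adjusted p = 0.00793). In the duodenum, where 0.44% of all probes were called, 1 of 6 fell with dietary iron, the apolipoprotein L *Apol9a*, which read log2 7.32 on average against 8.32 (SE of the difference 0.11, adjusted p = 0.022). No other gene of these 2 lists passed in any of the 4 comparisons. The lists of assembly and secretion partners (20 to 22 genes measured), of regulators of apolipoprotein genes (21 or 22), of *Apob* mRNA editing factors (4) and of cluster neighbours (7 to 10) had no gene past the threshold in any of the 4. The largest estimates in them, none of them called, were *Ces1g* with dietary iron in liver (0.63, adjusted p = 0.0581) and *Sec23a* in duodenum (-0.55, SE 0.76), the regulators *Creb3l3* with dietary iron in duodenum (0.76, adjusted p = 0.136) and *Nr1d1* in liver (0.66, adjusted p = 0.156), the editing factors *Syncrip* (0.26) and *Rbm47* (-0.26), and the neighbours *Tagln* (-0.28) and *Pcsk7* (0.21). In liver the median of the lists was between -0.16 and 0.15 in *Hfe*-/- mice and between 0.00 and 0.12 with dietary iron, beside -0.01 over all probes in each.

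Among the members, *Apoa5* followed *Apoa4* most closely over the 10 liver arrays (Pearson r = 0.844), then *Apoc3* (0.642) and *Apoe* (0.503), while *Apoa1* had r = -0.31. Outside the family the 5 genes most like the lead *Apoa4* probe, of 9312 probes compared, were *Adam23* (r = 0.943), *Mycl* (0.938), *Copz2* (0.920), *Abcc2* (0.914) and *Slc40a1* (0.909). *Slc40a1* is ferroportin, the iron exporter, and *Abcc2* an exporter of conjugates into bile. Their differences with dietary iron were 1.03 for *Adam23*, 0.82 for *Mycl*, 0.70 for *Slc40a1*, 0.36 for *Abcc2* and 0.24 for *Copz2*, and in *Hfe*-/- liver 0.17 to 0.42. Because they were chosen for their likeness to *Apoa4* on the same arrays, these values are a description with no test. These correlations describe 10 arrays that share 4 group means and a normalization.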

How the data were processed

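The members, gene lists and markers were chosen with earlier results of these data known. Biotin-labelled RNA of 1 mouse per array was hybridised to Illumina Sentrix Mouse-6 BeadChips. Bead intensity was deposited on a linear scale, with no background subtraction or normalization, beside a detection p-value per probe that the authors deposited from the scanner software. The authors also deposited log2 values that they had quantile-normalized in Chipster within each comparison. In duodenum those do not follow the probe identifiers (r = 0.00596 to 0.0111 with the intensities) and were not used, and in liver they served as an alternative. There the normalized column of *Hfe*-/- replicate 2 holds the values of signal column 1 (r = 1), so replicates 1 and 2 of that group may be exchanged. Replicate numbers follow the signal columns, and an exchange within the group would touch only left-out replicates and the replicate block. Among 46643 entries, 11 repeated identifiers were averaged, and 29976 probes have 1 symbol, 10 several and 16646 none. Symbols were updated through RefSeq, which changed 12.

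Intensities were brought to log2 and quantile-normalized per tissue (over all 19 arrays for contrasts between tissues). Each comparison took the probes that at least 2 of its own arrays detected (p under 0.05), fitted with limma 3.58.1 in R 4.3.3 (lmFit, eBayes) on the arrays of that comparison only, with Benjamini-Hochberg adjustment over all probes tested and a threshold of 0.05. Intervals are 95% intervals of the moderated statistic. Every p-value is from limma and two-sided. Groups of 2 or 3 mice limit the precision. Named are all members, list genes past the threshold (in lists with none, the 2 largest changes) and the 5 genes most like *Apoa4*. Fits were tested on simulated data. The files name no slides, so no slide could be used as a block.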

Additional observations from a re-analysis of the deposited data

Results flagged for a closer look

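In 6 tests the effect on a member probe differed between 2 settings of the same contrast at an adjusted p below 0.05. In liver the *Hfe* effect was below the diet effect for the 2 *Apoa4* probes (-1.46 and -1.27, SE 0.20 and 0.17) and for *Apoa5* (-1.44, SE 0.24). For *Apoa4* both effects were upward and differed in size, and for *Apoa5* only the diet effect passed. The diet effect was larger in liver than in duodenum for the 2 *Apoa4* probes (2.65 and 2.48, SE 0.22 and 0.17) and for *Apoa5* (1.35, SE 0.16). The duodenal *Apoa5* signal was below detection on all 9 arrays. The fold of dietary iron over control diet is read against control-diet livers whose *Apoa4* signal was itself 0.32 (log2) below that of the wild-type livers. The label ages of the 2 experiments differ as well, and neither was tested as a cause.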

How the results depend on the processing

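No member estimate that was called changed sign under any alternative, and of 431 uncalled lead-probe estimates 21 changed sign. The count of members called in *Hfe*-/- liver (1 probe) was 0 under median scaling, with the arrays of the comparison normalized alone, with normexp, with the values the authors had normalized, when only probes detected on all arrays were tested and in the fit on the 0.6% of probes of highest SD. It was 2 with no detection filter, with all 4 liver groups in 1 fit and with a trended robust fit, and 0 to 2 with 1 array left out. With the replicate number as a block the count was 0 (*Apoa4* log2 1.16, adjusted p = 0.0804). Same-numbered arrays share only a number, and their deviations from the group means correlated between -0.46 and 0.15 over the comparisons. The block left the count at 3 in the diet comparison in liver and at 0 in both comparisons in duodenum, so it changed no other of these 4 counts. In the *Hfe* comparison in duodenum, where same-numbered arrays deviated in opposite directions, a block with crossed numbers, chosen after seeing the data, also gave 0. The diet count in liver was between 2 and 4 in 15 alternatives and never outside 1.5 times the main count. With 1 array left out the count for the *Hfe* effect against the diet effect in liver was 0 to 3, and for the *Hfe* effect in liver against duodenum 0 to 1. Between tissues 8 of 13 probes were called when only probes detected on every array were tested, because fewer members are tested then. Between the control groups 1 member was called in liver under median scaling and under normexp (0 as reported, 0 to 0 with 1 array left out), and in duodenum 0 under median scaling and 0 to 4 with 1 array left out (4 as reported). Those 2 comparisons were chosen after seeing the data. Except where its construction shows it, the cause of a change was not tested. A group left with 1 array was assumed to vary like the others. Probes near background and probes at the top of the liver scale give the least reliable fold changes. Near background were *Apoa5*, *Apoc1* and *Apoa2* in duodenum and the second *Apoa4* probe in control-diet liver.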
